A study of Mus musculus with 12 samples.

Results

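Clearance of apoptotic cells, or efferocytosis, was examined at the level of 10 transcripts in tumor-associated macrophages (TAMs) from subcutaneous B16-F10 melanomas, a transplantable tumor line of C57BL/6 mice. The genes were chosen by name: the receptor tyrosine kinases Mertk and Axl, their ligands Gas6 and Pros1, the scavenger receptor Stab1, the bridging protein Mfge8 with the integrin chains Itgav and Itgb5, the engulfment adaptor Elmo1, and Anxa1. All 10, of 55401 genes listed, had 1 row in each of the 2 count tables, and all 10 passed the filter on low counts in both. One table holds 3 samples labelled WT, from mice labelled AMPKfl/fl with no cre named, and 3 samples labelled AMPK-KO, titled AMPKfl/flLyz2cre/cre, in which the floxed gene is combined with a cre on both Lyz2 alleles, all taken at day 15 after implantation. The other holds TAMs of wild-type mice, with 3 samples taken early, at day 8, and 3 taken late, at day 15, called early-stage and late-stage. The study used mice of 5 weeks on a C57BL/6 background, with female mice named in its methods, and TAMs were sorted as CD45+CD11b+Ly6C-Ly6G-F4/80+ cells. Lyz2cre acts in monocytes and neutrophils as well as macrophages, and the labels of 2 AMPK-KO samples write the cre allele with other Lyz numbers, while their titles give Lyz2cre/cre. The labels do not say that samples of a group came from separate animals, so p-values measure the spread between these samples, which may be technical.

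A dying cell exposes phosphatidylserine on its surface, and macrophages read that lipid either directly, as the stabilin receptor encoded by Stab1 does, or through bridging proteins. GAS6 and protein S (encoded by Pros1) link phosphatidylserine to the receptor kinases TYRO3, AXL and MERTK, whereas MFG-E8 links it to integrins that contain the αv chain, such as αvβ5. Downstream, ELMO1 works with DOCK proteins to activate RAC1 and drive the engulfing membrane, and annexin A1 binds phosphatidylserine and acts on formyl peptide receptors. MERTK is the member of its family most associated with resident and anti-inflammatory macrophages, and AXL is inducible by inflammatory signals.

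Library totals were 71019494 to 84470374 counts. Prkaa1, the floxed AMPK α1 gene, measured 68.8, 62.8 and 63.3 CPM (read counts per 1000000 reads of the library) in the 3 WT samples and 47.0, 40.9 and 40.8 CPM in the 3 AMPK-KO samples, so the groups did not overlap and the transcript was lower with the label (log2 fold change -0.60 ± 0.07 (SE), adjusted p = 2.26e-04). Lyz2, whose locus carries the cre, was at 9.32, 13.5 and 9.16 CPM in WT and 9.16, 11.0 and 13.5 CPM in AMPK-KO, against 3009, 2884 and 2476 CPM in early-stage and 1092, 1102 and 1129 CPM in late-stage TAMs. The Lyz2 ranges of WT and AMPK-KO overlapped, so this transcript does not separate samples titled cre/cre from samples with no cre named. In all 3 WT samples Lyz2 was at the level of the samples titled cre/cre and far below that of early-stage and late-stage TAMs. Whether WT carries the cre was not tested. That WT is free of the cre rests on its label alone, and every AMPK-KO against WT value compares the samples as labelled. Summed counts of 4 Y-linked genes were 9229 to 11360 in WT, 11299 to 12183 in AMPK-KO and 3435 to 4035 in early-stage samples but 0 to 4 in late-stage samples, so that sex and stage cannot be told apart in the second table. All samples of WT, AMPK-KO and early-stage TAMs thus go against the stated sex of the mice, and the late-stage samples do not. The early-stage sums were below all those of WT and AMPK-KO. Whether early-stage samples mix animals of both sexes was not tested. The macrophage genes Adgre1, Csf1r and Cd68 had means of 865 to 971, 942 to 1334 and 931 to 1361 CPM over the 4 groups, and the neutrophil marker Ly6g had means between 0 and 0.02 CPM. Cd68 (1351 to 1370 CPM in WT, 892 to 978 CPM in AMPK-KO) and Mrc1 (1679 to 1850 and 1143 to 1299 CPM) were lower in AMPK-KO. Csf1r (1208 to 1216 and 1320 to 1344 CPM) and Itgam (1047 to 1098 and 1453 to 1651 CPM) were higher there. The 7 listed neutrophil markers summed to 111 to 119 CPM in WT and 183 to 185 CPM in AMPK-KO.

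Transcripts of other cells were present and moved with the groups. Over all genes tested, 11.3% were called higher and 9.78% lower for AMPK-KO against WT. For late-stage against early-stage the shares were 4.31% higher and 4.88% lower. For AMPK-KO against WT, 6 of 7 B16 melanoma markers were lower (summed level 998 to 999 CPM in WT and 676 to 716 CPM in AMPK-KO). In the other direction, 3 of 5 monocyte markers (446 to 488 against 774 to 803 CPM) and 6 of 7 fibroblast markers (575 to 621 against 747 to 829 CPM) were higher in AMPK-KO. Markers of T cells (6 of 7), NK cells (6 of 6), conventional dendritic cells (7 of 7) and neutrophils (4 of 6 tested) were also higher, at summed levels of at most 185 CPM. B cell markers gave 1 higher and 4 lower, with a median log2 fold change of -5.01. Their summed level was 30.9 to 32.5 CPM in WT and 19.9 to 22.1 CPM in AMPK-KO. Of the remaining lists, plasmacytoid dendritic cell markers gave 1 lower of 3 tested (486 to 579 CPM in WT and 366 to 409 CPM in AMPK-KO). Endothelial markers gave 2 higher and 1 lower of 6 tested, with summed levels of 56.8 to 69.0 CPM in WT and 125 to 129 CPM in AMPK-KO. Epithelial markers gave 1 higher of 2 tested, and the 1 basophil or mast cell marker tested was higher. Erythroid markers gave 2 lower, and macrophage markers 2 higher and 2 lower. In late-stage against early-stage TAMs, 5 of 7 melanoma markers (1663 to 1807 against 767 to 1203 CPM), 4 of 5 monocyte markers (519 to 608 against 209 to 238 CPM), 3 of 7 fibroblast markers (811 to 884 against 397 to 561 CPM) and 4 of 6 NK cell markers were lower. There, 3 of 5 B cell markers and 2 of 7 T cell markers were higher, 2 neutrophil, 1 endothelial and 1 erythroid marker were lower, 1 epithelial marker was higher, conventional dendritic cell and macrophage markers gave 1 in each direction, and no plasmacytoid dendritic or basophil or mast cell marker was called. The part of these cells in the differences described next was not tested.

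Axl, Gas6 and Stab1 carry most of what follows, and the 250 bases before the RefSeq start of each are shown as the regions just before transcription starts in the genes with the largest log2 fold changes of the set. The windows are, on GRCm38.p6 and written on the gene's own strand, chr7:25788734-25788983, minus strand for Axl, chr8:13494536-13494785, minus strand for Gas6 and chr14:31168642-31168891, minus strand for Stab1. Capitals mark GGGCGG, the GC box bound by SP-family factors, and GAGGAA, a core bound by the macrophage factor PU.1, on either strand.
Axl: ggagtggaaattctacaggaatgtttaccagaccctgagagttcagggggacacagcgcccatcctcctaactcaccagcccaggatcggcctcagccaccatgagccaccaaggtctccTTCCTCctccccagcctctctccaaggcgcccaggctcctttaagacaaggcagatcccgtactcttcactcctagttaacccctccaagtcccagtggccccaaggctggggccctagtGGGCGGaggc
Gas6: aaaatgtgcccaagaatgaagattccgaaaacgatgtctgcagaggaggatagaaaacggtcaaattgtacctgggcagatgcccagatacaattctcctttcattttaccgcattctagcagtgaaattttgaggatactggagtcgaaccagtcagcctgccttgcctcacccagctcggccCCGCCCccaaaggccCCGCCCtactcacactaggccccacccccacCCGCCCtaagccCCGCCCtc
Stab1: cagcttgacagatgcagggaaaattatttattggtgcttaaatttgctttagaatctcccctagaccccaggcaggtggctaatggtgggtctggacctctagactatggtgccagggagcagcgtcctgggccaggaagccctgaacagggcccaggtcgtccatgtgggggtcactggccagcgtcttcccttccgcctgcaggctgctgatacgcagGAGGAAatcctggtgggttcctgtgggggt
The Gas6 window held 4 GC boxes and no PU.1 core, the Axl window 1 of each, and the Stab1 window 1 PU.1 core and no GC box, with no overlap between matches. Among 27025 RefSeq promoters, 32.94% held a GC box and 23.13% a PU.1 core in the same window. TGANTCA, the AP-1 site, is in 6.87% of these windows and in none of the 10 genes' own. The motifs were picked after the expression values were seen, and a match is a description of letters only. Over the whole set, GC boxes occurred before Mertk (3), Pros1 (5), Mfge8 (4), Itgb5 (3) and the first of 2 listed Elmo1 starts (3), and PU.1 cores before Mfge8 (1), Itgav (2) and Anxa1 (1), beside those shown.

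The study set AMPK-KO against WT TAMs to ask what loss of AMPK in myeloid cells changes in tumors of day 15. Of the 10 transcripts, 1 rose (Axl) and 3 fell (Gas6, Stab1 and Anxa1), while 6 did not pass the test. The 4 called compare with 21.1% of the 17532 genes tested (11.3% higher and 9.78% lower). Only Gas6 also passed a log2 fold change of 1 in size, which 3.34% of all genes did. Groups did not overlap for 7 of the 10, against 37.2% of all genes, and the median log2 fold change was -0.14 over the 10 and 0.00 over all genes.

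Axl (ENSMUSG00000002602.16, chr7:25757273-25788705, minus strand of GRCm38) measured 263, 253 and 262 CPM in WT and 392, 399.6 and 360.2 CPM in AMPK-KO. All 3 AMPK-KO samples lay above all 3 WT samples, a rise of 1.48-fold (log2 fold change 0.57 ± 0.05 (SE), adjusted p = 2.89e-05). Its relative Mertk (ENSMUSG00000014361.5, chr2:128698956-128802894, plus strand) stood at 77.7, 69.7 and 66.4 CPM in WT and 70.9, 72.5 and 67.2 CPM in AMPK-KO. These Mertk values overlapped, with a difference smaller than its error (log2 fold change -0.02 ± 0.07 (SE), adjusted p = 0.873). Because the cells were measured in bulk, fewer cells of a type and less RNA per cell cannot be told apart for any of these values.

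Gas6, the ligand with affinity for all 3 receptors of the family (ENSMUSG00000031451.6, chr8:13465374-13494490, minus strand), showed the largest change of the set. It was 530.2, 572 and 549.9 CPM in WT and 247, 255 and 258 CPM in AMPK-KO, with every AMPK-KO value far below every WT value. The fall was 2.18-fold (log2 fold change -1.12 ± 0.05 (SE), adjusted p = 2.21e-07). Pros1, the gene of protein S (ENSMUSG00000022912.8, chr16:62854307-62929346, plus strand), ran at 60.9, 60.7 and 61.6 CPM in WT and 56.4, 54.4 and 53.7 CPM in AMPK-KO. The Pros1 groups were separate but close and the difference missed the threshold (log2 fold change -0.15 ± 0.05 (SE), adjusted p = 0.0672), although with upper-quartile scaling it passed (adjusted p = 0.0466).

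Stab1, the gene of stabilin-1 (ENSMUSG00000042286.13, chr14:31139013-31168641, minus strand), gave 2483, 2273 and 2328 CPM in WT and 1337, 1332 and 1278 CPM in AMPK-KO. No sample of either group came near the other, and the transcript fell 1.79-fold (log2 fold change -0.84 ± 0.04 (SE), adjusted p = 7.32e-07). Nt5dc2, which lies on the opposite strand and shares 112 bases or 1.09% of the Stab1 exons, was also lower (75.6 ± 3.30 CPM in WT and 53.9 ± 2.96 CPM in AMPK-KO, SD, n = 3). Whether counting used the strand is not given in the sources used here, so reads in that stretch cannot be assigned to either gene. Anxa1 (ENSMUSG00000024659.15, chr19:20373428-20390944, minus strand) was at 289, 322 and 306 CPM in WT and 218, 217 and 229 CPM in AMPK-KO. It fell 1.38-fold with no overlap (log2 fold change -0.46 ± 0.05 (SE), adjusted p = 1.44e-04).

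For the integrin arm, Itgav (ENSMUSG00000027087.11, chr2:83724397-83806916, plus strand) was 93.9, 91.6 and 93.4 CPM in WT and 116, 109.9 and 95.9 CPM in AMPK-KO. The 3 WT values were tight and the AMPK-KO values spread upward from just above them, a difference that did not pass (log2 fold change 0.21 ± 0.07 (SE), adjusted p = 0.0618) but did without AMPK-KO3 (log2 fold change 0.28, adjusted p = 0.00927) with DESeq2 (adjusted p = 0.0299) and with a minimum of 10 counts (adjusted p = 0.04998). Itgb5, its β5 partner chain (ENSMUSG00000022817.15, chr16:33829665-33949338, plus strand), had 208, 202 and 204 CPM in WT and 188, 189.8 and 186 CPM in AMPK-KO. These groups were also separate by a small step (log2 fold change -0.13 ± 0.04 (SE), adjusted p = 0.0689), called, of the settings with an adjusted p, only with upper-quartile scaling (adjusted p = 0.0463). Mfge8 (ENSMUSG00000030605.15, chr7:79133768-79149060, minus strand), which encodes the bridge to these integrins, was the scarcest member at 12.7, 12.8 and 14.1 CPM in WT and 13.2, 11.1 and 11.3 CPM in AMPK-KO. The Mfge8 groups overlapped (log2 fold change -0.15 ± 0.11 (SE), adjusted p = 0.36). Elmo1 (ENSMUSG00000041112.17, chr13:20090596-20608353, plus strand) overlapped as well, at 108, 105 and 108 CPM in WT and 107, 102 and 95.5 CPM in AMPK-KO (log2 fold change -0.08 ± 0.06 (SE), adjusted p = 0.4).

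**Figure D1:**
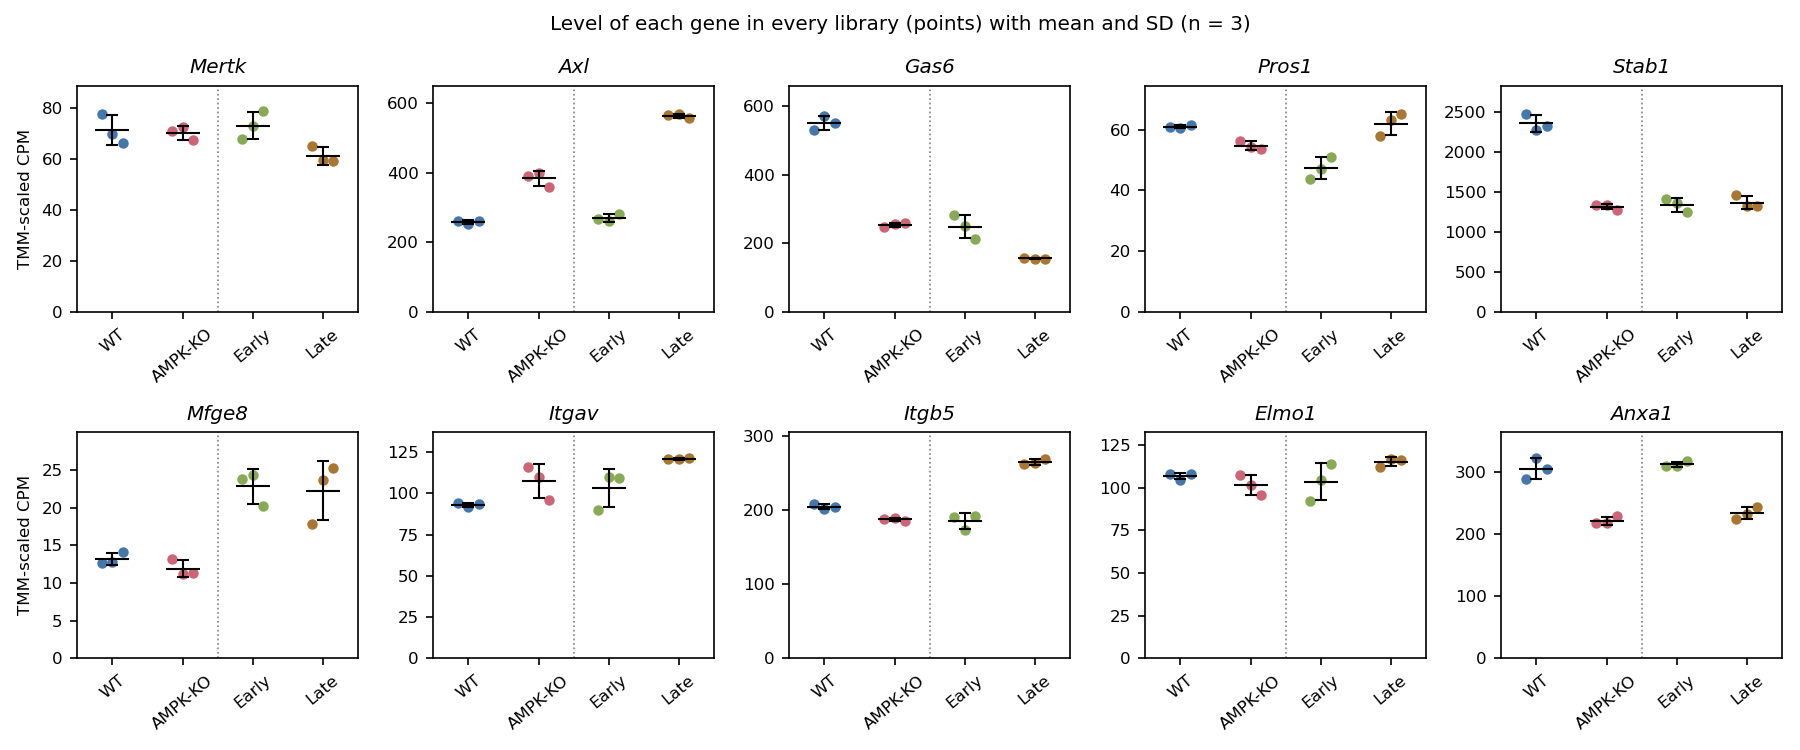
Level of each of the 10 transcripts in CPM after TMM scaling (y axis, starting at 0) in the 12 samples, by group (x axis; Early is day 8, Late is day 15). Points are samples and bars are the mean and SD of 3; the dotted line separates the tables, which were scaled separately. Axl is highest in late-stage samples (558 to 568 CPM) and Gas6 is highest in WT samples (530.2 to 572 CPM).

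Late-stage and early-stage TAMs were compared in the study to ask how TAMs change as the tumor grows. Axl, Pros1 and Itgb5 rose, Gas6 and Anxa1 fell, and 5 of the 10 did not pass. Over all 17630 genes tested, 9.18% were called (4.31% higher and 4.88% lower). Axl alone passed a log2 fold change of 1 in size, against 1.87% of all genes, and groups did not overlap for 7 of the 10 against 31.2% of all genes. The median log2 fold change was 0.09 over the 10 and 0.00 over all genes.

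Axl was 266, 260.4 and 283 CPM in early-stage and 565, 568 and 558 CPM in late-stage TAMs. The late-stage samples lay close together and all above the early-stage samples, a 2.09-fold rise (log2 fold change 1.06 ± 0.07 (SE), adjusted p = 2.04e-05). For Mertk the samples gave 67.8, 72.7 and 78.7 CPM early and 65.0, 59.5 and 59.0 CPM late. All 3 late values were lower, but the difference missed the threshold (log2 fold change -0.26 ± 0.08 (SE), adjusted p = 0.0887) and, of the settings with an adjusted p, passed it only without Early1 (log2 fold change -0.31, adjusted p = 0.0319).

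Gas6 was 281, 249 and 213 CPM in early-stage and 157, 155 and 155 CPM in late-stage TAMs. The early-stage samples were spread over a wide range, the late-stage samples over a narrow one, and the fall was 1.59-fold (log2 fold change -0.67 ± 0.10 (SE), adjusted p = 0.00245). Pros1, the other ligand, went the opposite way, from 43.7, 47.2 and 51.0 CPM early to 57.9, 63.1 and 65.3 CPM late. Its rise of 1.31-fold passed the test (log2 fold change 0.39 ± 0.09 (SE), adjusted p = 0.0228), but not without Early2 (adjusted p = 0.102), Late2 (0.108) or Late3 (0.114), nor without a filter on low counts (0.0534).

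Itgb5 stood at 191, 173 and 192 CPM in early-stage and 263, 263 and 269.8 CPM in late-stage TAMs. Every late-stage value was above the highest early-stage value, a 1.43-fold rise (log2 fold change 0.52 ± 0.07 (SE), adjusted p = 0.00176). Anxa1 was at 310.0, 311 and 318 CPM early and 225, 233 and 244 CPM late. The groups were separate and Anxa1 fell 1.34-fold (log2 fold change -0.42 ± 0.07 (SE), adjusted p = 0.00395), close in size to its change in AMPK-KO against WT.

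Among the rest, Itgav was 90.0, 110.0 and 109 CPM early and 121, 121 and 122 CPM late. The late values lay close together and above all early ones, without passing the test (log2 fold change 0.23 ± 0.09 (SE), adjusted p = 0.139). Stab1, lower in AMPK-KO, was 1415, 1362 and 1245 CPM early and 1460.1, 1323 and 1319 CPM late, and these ranges overlapped (log2 fold change 0.03 ± 0.07 (SE), adjusted p = 0.859). Mfge8 had 23.8, 24.4 and 20.2 CPM early and 17.8, 23.7 and 25.3 CPM late, with Late1 as the lowest (log2 fold change -0.04 ± 0.14 (SE), adjusted p = 0.91). The sign of the Mfge8 difference was positive without Late1 (0.10) or without Early2 (0.011). For Elmo1 the values were 92.1, 105 and 114 CPM early and 112, 117 and 116 CPM late. These Elmo1 ranges overlapped too (log2 fold change 0.15 ± 0.09 (SE), adjusted p = 0.318).

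**Figure D2:**
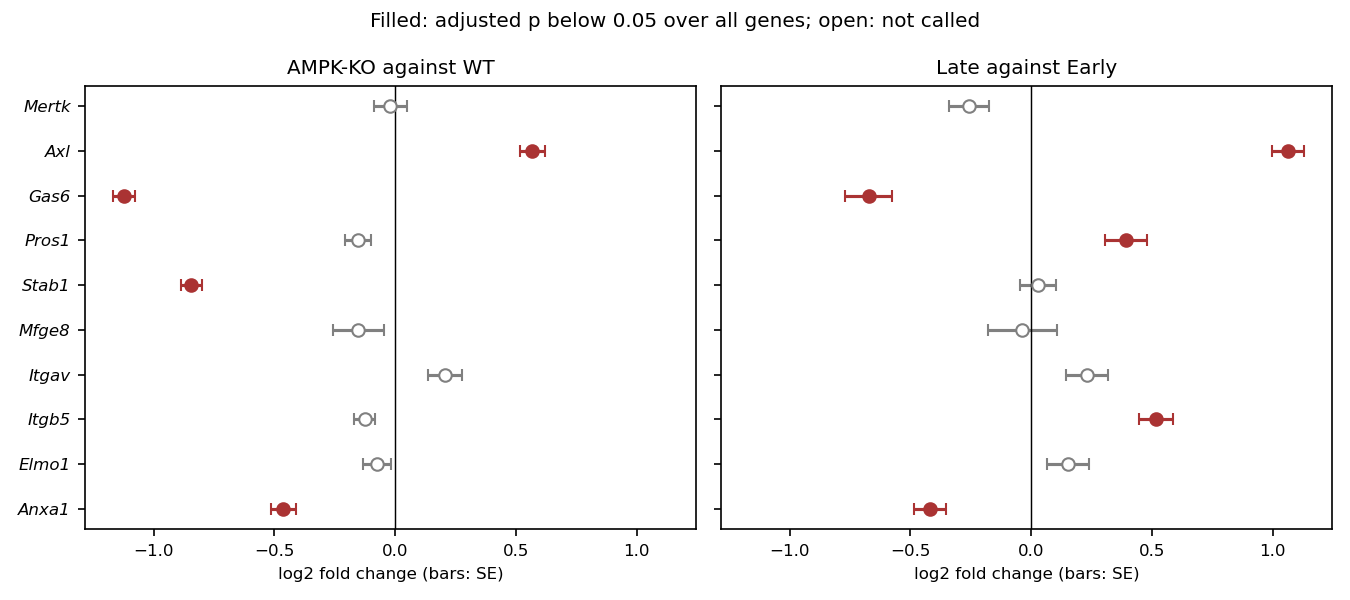
Log2 fold change (x axis) with its SE from edgeR for the 10 transcripts (y axis), AMPK-KO against WT on the left and late-stage against early-stage on the right. Filled points have an adjusted p below 0.05 over all genes tested. Axl is right of 0 and Gas6 and Anxa1 left of 0 in both panels, whereas Stab1 is at -0.84 on the left and 0.03 on the right.

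The comparisons share no samples, and 3 members (Axl, Gas6 and Anxa1) were called in both, each in the same direction. Over the 16812 genes tested in both tables, 822 were called in both and 456 of these in the same direction. One comparison varied the genotype as labelled and the other varied the tumor's age together with the presence of Y-linked transcripts. The difference between the 2 effects was not tested.

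Ratios within a sample do not depend on scaling between samples, and they were taken for the receptor pair and the ligand pair on raw counts. There were 3.38, 3.63 and 3.94 Axl reads per Mertk read in WT and 5.53, 5.51 and 5.36 in AMPK-KO, a difference of 0.59 on the log2 scale. The same ratio was 3.92, 3.58 and 3.59 in early-stage and 8.69, 9.56 and 9.47 in late-stage TAMs, a difference of 1.32. Axl thus gained on Mertk in all 3 samples of each second group. Gas6 reads per Pros1 read were 8.71, 9.43 and 8.93 in WT and 4.37, 4.69 and 4.80 in AMPK-KO, a log2 difference of -0.97. In early-stage samples that ratio was 6.43, 5.28 and 4.18 and in late-stage samples 2.71, 2.46 and 2.37, a log2 difference of -1.06. No ratio overlapped between its groups. In a two-sided exact permutation test all 4 differences had p = 0.1, the smallest that 3 samples against 3 allow, and 4 ratios were tested, so the adjusted p is 0.1 as well.

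**Figure D3:**
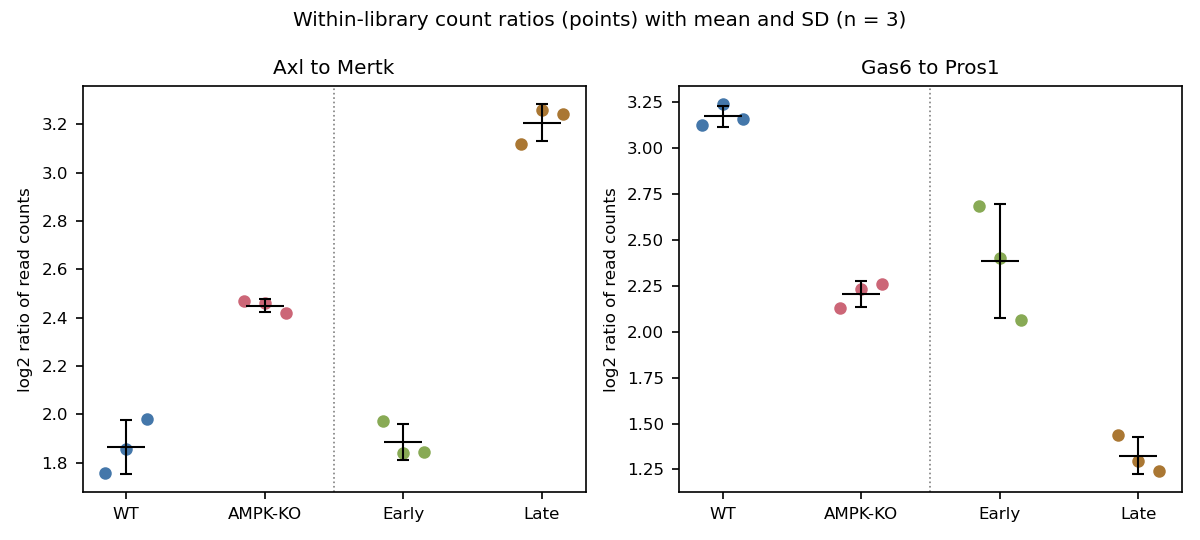
Log2 ratio of read counts within each sample (y axis, not starting at 0), Axl to Mertk on the left and Gas6 to Pros1 on the right, for 4 groups of 3 samples (x axis) with mean and SD. The Axl to Mertk ratio is higher in AMPK-KO than in WT and higher in late-stage than in early-stage samples, and the Gas6 to Pros1 ratio is lower in both.

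To compare levels between genes, CPM was divided by the length of the merged GENCODE exons in kilobases. On that scale WT TAMs held 229.5 ± 10.6 CPM per kb of Stab1, 216 ± 8.21 of Gas6, 105 ± 5.80 of Anxa1, 57.7 ± 0.890 of Itgb5 and 51.5 ± 1.09 of Axl (mean ± SD, n = 3). Mertk, Pros1, Itgav, Elmo1 and Mfge8 followed at 16.4 ± 1.34, 14.9 ± 0.121, 8.65 ± 0.115, 8.49 ± 0.155 and 2.81 ± 0.174 CPM per kb. Such an order depends on the merged length, which is 12.58 kb for Elmo1. By mean CPM, Elmo1 (107) stood above Itgav (93.0), Mertk (71.2) and Pros1 (61.0) in WT. Which transcripts of each gene were expressed was not tested. Stab1 and Gas6, and Itgav and Elmo1, could not be ordered because their ranges overlapped. In late-stage TAMs the order was Stab1 (133 ± 7.81), Axl (112 ± 1.05), Anxa1 (80.3 ± 3.38), Itgb5 (74.7 ± 1.11) and Gas6 (61.0 ± 0.435 CPM per kb), with Pros1 and Mertk overlapping below them. Axl was the fifth transcript in WT, the third in AMPK-KO, where its range overlapped that of Anxa1, and the fourth in early-stage TAMs, where it overlapped Itgb5. Mfge8 was the lowest in all 4 groups.

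Tyro3, the remaining kinase of the receptor family, was nearly absent, with mean levels of 1.09 to 1.84 CPM. Per length, Axl made up 74.2% to 76.9% of the 3 receptor transcripts in WT samples, 82.1% to 82.5% in AMPK-KO, 75.2% to 77.0% in early-stage and 88.1% to 89.0% in late-stage samples. Gas6 made up 93.3% to 93.8% of Gas6 plus Pros1 in WT, 87.5% to 88.5% in AMPK-KO, 87.0% to 91.2% in early-stage and 79.2% to 81.3% in late-stage samples. Itgb5 outweighed Itgb3, the other αv partner of this bridge, in every sample, with 93.4% to 97.1% of their sum.

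The order of the 4 groups differed from gene to gene. WT and late-stage samples were both taken at day 15 from mice whose labels name no cre, and Gas6 was 551 ± 20.9 CPM in WT and 155 ± 1.11 CPM in late-stage TAMs, and Axl was 259 ± 5.49 CPM and 564 ± 5.27 CPM. Stab1 was 2361 ± 109 CPM in WT against 1316 to 1367 CPM in the means of the other 3 groups. Levels were set across separately scaled tables here, the samples differ in Y-linked transcripts and Lyz2 as given above, and no test was made. Axl ran from late-stage through AMPK-KO to early-stage and WT, the last pair overlapping, and Gas6 from WT to late-stage with AMPK-KO and early-stage overlapping between them. For Anxa1, early-stage and WT overlapped at the top and late-stage and AMPK-KO at the bottom. Pros1 was highest in late-stage and WT samples, which overlapped, and Itgb5 was highest in late-stage samples alone, followed by WT.

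Other genes of the pathway were described from lists of receptors, bridges, machinery and regulators. Of 103 such genes tested for AMPK-KO against WT, 34 were higher and 23 lower (called overall: 21.1% of all genes), and of 104 tested for late-stage against early-stage, 7 were higher and 20 lower (9.18% of all genes). The median log2 fold change of the lists was 0.01 and -0.01, against 0.00 for all genes in each comparison. The shares of 21.1% and 9.18% also stand beside the count of each list below, and several of those counts are near them.

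Among 9 tested receptors for phosphatidylserine, AMPK-KO TAMs had 3 higher and 2 lower. The higher ones were the CD300 family genes Cd300lf at a log2 fold change of 0.75 (adjusted p = 3.32e-06) and Cd300a at 0.18 (adjusted p = 0.028), with the TIM-3 gene Havcr2 at 0.49 (adjusted p = 1.41e-04) between them. Timd4, the gene of the tethering receptor TIM-4, was at -0.47 (adjusted p = 0.00389) and Cd300lb at -0.40 (adjusted p = 6.47e-04). With stage, only Cd300lb of 10 tested was called, at -0.70 (adjusted p = 9.16e-04). The call of Cd300a was lost without WT3, AMPK-KO2 or AMPK-KO3 (adjusted p 0.0819 to 0.133).

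Integrins and scavenger receptors divided in AMPK-KO, with 5 of 16 higher and 6 lower. Itgax, the CD11c integrin chain, rose from 119 ± 4.76 to 254 ± 14.0 CPM (1.10 on the log2 scale, adjusted p = 7.32e-07), with Olr1 at 0.94 (adjusted p = 0.0183) and Itgam at 0.55 (adjusted p = 3.41e-05). Marco, a class A scavenger receptor, fell from 64.9 ± 6.95 to 17.9 ± 0.773 CPM (-1.86 on the log2 scale, adjusted p = 3.86e-07), with Colec12 at -0.73 (adjusted p = 0.00131) and Cd36 at -0.64 (adjusted p = 4.32e-06). Olr1 was scarce, at 1.79, 1.91 and 1.12 CPM in WT and 3.01, 3.37 and 2.85 CPM in AMPK-KO. It was not called without WT3, AMPK-KO1 or AMPK-KO2 (adjusted p 0.0516 to 0.0791). In late-stage TAMs 3 of 16 were higher and 6 lower. Marco went from 17.5 ± 4.62 to 4.09 ± 0.773 CPM (-2.10 on the log2 scale, adjusted p = 3.51e-04), Colec12 had -1.43 (adjusted p = 1.19e-04) and Cd36 -0.72 (adjusted p = 8.82e-04), while Itgax was higher at 0.56 (adjusted p = 9.98e-04). Scarb1 at 0.31 (adjusted p = 0.03) and Lrp1 at 0.31 (adjusted p = 0.042) were the other higher calls, and these were lost without any 1 of the late-stage samples, without Early2 for Scarb1, and without Early3 for Lrp1 (adjusted p 0.0505 to 0.166).

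Of 9 other bridging proteins tested, AMPK-KO had 2 lower, Calr (the gene of the surface eat-me signal calreticulin) at -0.42 (adjusted p = 6.71e-05) and Lgals3 at -0.23 (adjusted p = 0.0455), the latter lost without WT2, WT3, AMPK-KO1 or AMPK-KO2 (adjusted p 0.137 to 0.167). With stage, Thbs1, the gene of thrombospondin-1, fell from 1188 ± 106 to 619 ± 37.1 CPM (-0.94 on the log2 scale, adjusted p = 1.49e-04). The complement gene C1qa was higher at 0.49 (adjusted p = 0.0291), a call lost without Early2 or any 1 of the late-stage samples (adjusted p 0.1002 to 0.115).

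In the engulfment machinery, 5 of 16 genes were higher in AMPK-KO and 3 lower. Abca7 (0.32 on the log2 scale, adjusted p = 0.00871), the RAC activator Vav1 (0.28 on the log2 scale, adjusted p = 0.00212) and the adaptor Crkl (0.27 on the log2 scale, adjusted p = 0.00789) led the higher genes, and the focal adhesion kinase gene Ptk2 (-0.67 on the log2 scale, adjusted p = 3.12e-04), Bcar1 (-0.51 on the log2 scale, adjusted p = 0.0193) and the ELMO partner Dock1 (-0.25 on the log2 scale, adjusted p = 0.0474) the lower ones. Abca7 and Crkl were lost without WT3 (adjusted p 0.0584 and 0.0536), Bcar1 without WT3, AMPK-KO1 or AMPK-KO3 (0.0699 to 0.0797), and Dock1 without any 1 sample other than WT2 (0.0776 to 0.139). Late-stage TAMs had Abca7 higher at 0.54 (adjusted p = 0.0199) and Ptk2 lower at -0.84 (adjusted p = 0.0015) among 16, of which Abca7 was lost without Early2, Late1 or Late2 (0.0648 to 0.0924).

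The don't-eat-me axis of inhibitory signals had 4 of 5 genes higher in AMPK-KO, led by Pirb (0.34 on the log2 scale, adjusted p = 6.97e-04), Cd24a (0.32 on the log2 scale, adjusted p = 0.0438) and Cd47 (0.22 on the log2 scale, adjusted p = 0.00563). In late-stage TAMs the same 3 genes were lower, at -0.74 (adjusted p = 0.0178) for Cd24a, -0.44 (adjusted p = 0.0094) for Pirb and -0.25 (adjusted p = 0.0416) for Cd47. Cd24a in AMPK-KO was lost without any 1 sample other than AMPK-KO1 (adjusted p 0.0551 to 0.173). The late-stage calls were lost without Late1 or Late3 for Cd24a (0.0620 and 0.0631), without Early2, Late2 or Late3 for Pirb (0.0538 to 0.0663), and without Early2 or any 1 late-stage sample for Cd47 (0.134 to 0.175).

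Genes of phagosome maturation and digestion gave 5 higher and 4 lower of 18 in AMPK-KO. Cybb, the gene of the phagocyte oxidase subunit that LC3-associated phagocytosis uses, rose from 507 ± 26.8 to 830.0 ± 69.6 CPM (0.71 on the log2 scale, adjusted p = 3.24e-05), with the lysosomal nucleoside transporter gene Slc29a3 at 0.41 (adjusted p = 0.00396) and Ucp2 at 0.25 (adjusted p = 0.00126). The lysosomal lipase gene Lipa was lower at -0.38 (adjusted p = 3.23e-04), Lamp1 at -0.26 (adjusted p = 6.78e-04) and Dnase2a at -0.21 (adjusted p = 0.0474), the last lost without WT2, WT3, AMPK-KO1 or AMPK-KO2 (adjusted p 0.0861 to 0.182). Stage gave 2 lower of 18, the endosomal GTPase genes Rab7 (-0.40 on the log2 scale, adjusted p = 0.00524) and Rab5a (-0.33 on the log2 scale, adjusted p = 0.0293), and Rab5a was lost without Early2 or any 1 late-stage sample (0.0975 to 0.131).

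Sterol handling, which follows the uptake of dead cells, showed 4 of 10 genes higher and 2 lower in AMPK-KO. The cholesterol exporter gene Abcg1 was at 0.55 (adjusted p = 2.23e-05), Nr1h3, the LXRα gene, at 0.40 (adjusted p = 0.00147) and Pparg at 0.32 (adjusted p = 0.00319), whereas Apoe was at -0.47 (adjusted p = 7.60e-04) and Rxra at -0.26 (adjusted p = 0.00378). In late-stage TAMs Pparg was higher at 0.30 (adjusted p = 0.0338) and the exporter gene Abca1 lower at -0.59 (adjusted p = 0.00748). Without Early2 neither of these was called (adjusted p = 0.115 and 0.0536), and Pparg was also lost without any 1 late-stage sample (0.0983 to 0.150).

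Regulators linked to the receptor kinases had 4 of 8 genes higher in AMPK-KO and none lower. Socs1, a suppressor of cytokine signaling that AXL is known to induce, rose from 14.9 ± 1.79 to 42.1 ± 2.46 CPM (1.50 on the log2 scale, adjusted p = 3.05e-06), with Socs3 at 0.42 (adjusted p = 4.48e-05). Whether the rise of Socs1 is linked to that of Axl was not tested. In late-stage TAMs 1 of 8 was called, the macrophage transcription factor gene Maf at -0.42 (adjusted p = 0.0183), which was lost without Late2 (adjusted p = 0.107) or Late3 (0.0919).

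Both tested receptors of annexin A1 were called in each comparison. Fpr2 was 27.4, 23.8 and 27.1 CPM in WT and 61.4, 61.9 and 56.9 CPM in AMPK-KO, a rise without overlap (log2 fold change 1.20 ± 0.07 (SE), adjusted p = 2.13e-06), and Fpr1 was at 0.36 (adjusted p = 0.00486), while Anxa1 itself fell. With stage, Fpr1 was 29.8, 34.6 and 38.7 CPM early and 10.3, 11.3 and 10.7 CPM late. It fell along with Anxa1 (log2 fold change -1.67 ± 0.12 (SE), adjusted p = 4.26e-05), and Fpr2 was lower at -0.45 (adjusted p = 0.0225), a call lost without Early2 or any 1 late-stage sample (adjusted p 0.0727 to 0.112).

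Receptors for find-me signals, which draw phagocytes to dying cells, had 2 of 7 higher and 4 lower in AMPK-KO. The lysophosphatidylcholine receptor gene Gpr132 was at 0.94 (adjusted p = 4.88e-06) and Cx3cr1 at 0.19 (adjusted p = 0.0315), the latter lost without any 1 sample other than WT1 (adjusted p 0.0604 to 0.162). S1pr1, a receptor for sphingosine-1-phosphate, was at -1.28 (adjusted p = 2.69e-05), and the nucleotide receptor genes P2ry2 and P2ry12 at -0.60 (adjusted p = 3.84e-04) and -0.41 (adjusted p = 0.00393). In late-stage TAMs Cx3cr1, the fractalkine receptor gene, rose from 119 ± 10.3 to 249.6 ± 2.23 CPM (1.07 on the log2 scale, adjusted p = 4.79e-05). S1pr1 was lower at -0.63 (adjusted p = 0.0053) and Gpr34 at -1.07 (adjusted p = 0.0229), Gpr34 being lost without Early2, Late2 or Late3 (0.0908 to 0.101). None of Tgfb1, Il10 and Alox15, mediators of resolution, was called in either comparison.

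**Figure D4:**
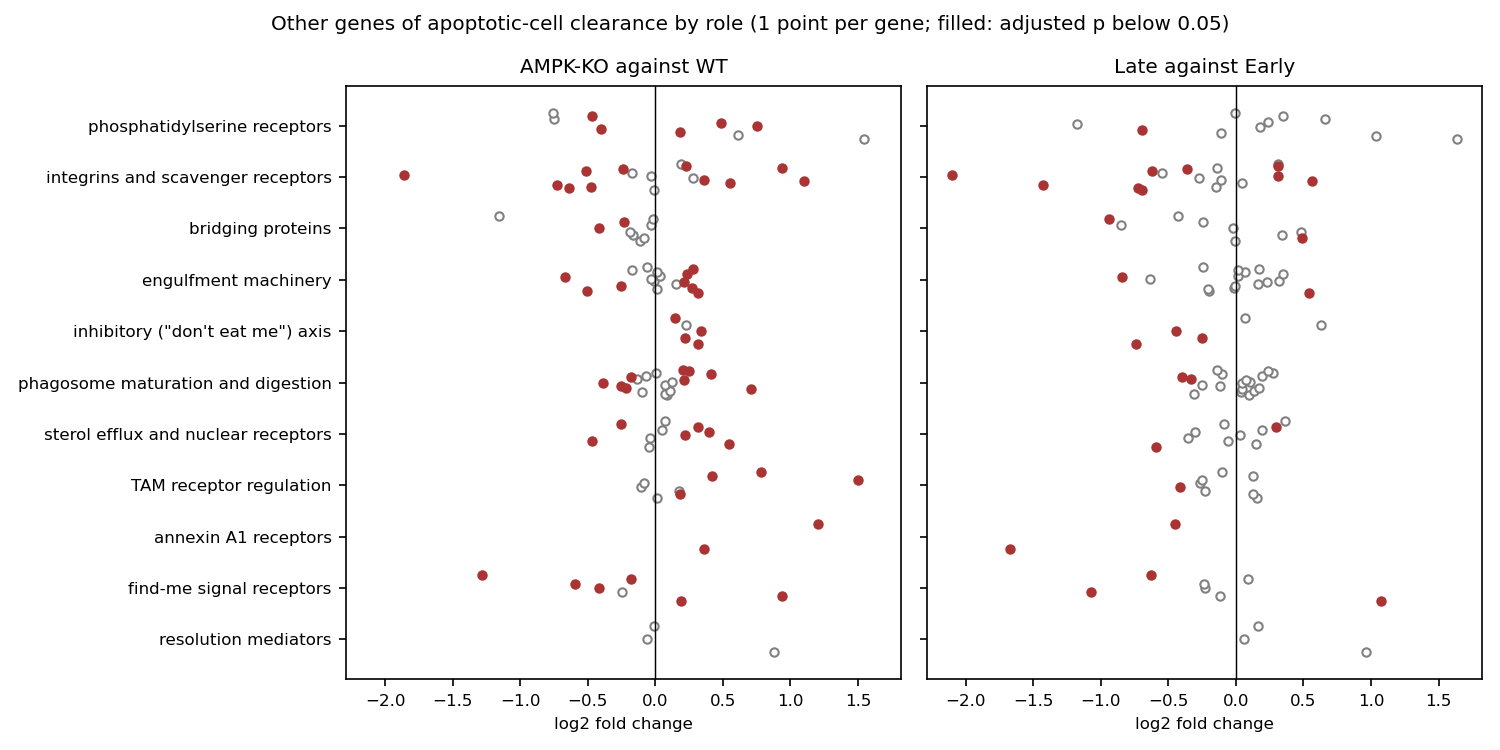
Log2 fold change (x axis) of each tested gene of the other lists (y axis, by role), AMPK-KO against WT on the left and late-stage against early-stage on the right; filled points have an adjusted p below 0.05. Integrins and scavenger receptors span from Marco (-1.86 and -2.10) to Itgax (1.10 and 0.56), and both annexin A1 receptors are right of 0 on the left and left of 0 on the right.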

How the data were processed

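RNA of sorted TAMs was sequenced in 12 samples, 3 each of WT, AMPK-KO, early-stage and late-stage, and groups were taken from the sample titles. Raw counts per gene were deposited in 1 table per comparison; the authors had made them with featureCounts from HISAT2 alignments (mm10/GRCm38 in the submitters' processing notes). Versions, strand and the handling of multiply mapped reads are not given in the sources used here. The number of columns left unused was 0.

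Each table was filtered with filterByExpr, scaled by TMM (trimmed mean of M-values) and fitted on its own in edgeR 4.0.16 (R 4.3.3) by quasi-likelihood, with Benjamini-Hochberg adjustment over all genes tested. A gene was called at an adjusted p below 0.05. SEs are the log2 fold change divided by the square root of F. Both tools were tested on simulated data. Count ratios within a sample were compared by a two-sided exact permutation test. Library totals, 71019494 to 84470374 counts, limit only genes with few reads, and the 10 transcripts were far above that level.

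The 10 genes, the lists and the tests were chosen with earlier results of these data known. Named from each list were up to 3 called genes in each direction with the largest log2 fold changes. A gene that this rule covers is not reported here. Coordinates and exon lengths are from GENCODE M21 (GRCm38), which matched 54349 of 55401 identifiers with their version, among them all 10. Promoters were from RefSeq (GRCm38.p6) and covered all 10. Protein sequences, and a comparison of them, were not analysed here. As alternatives, each sample was left out, replicate numbers were fitted as a block, genes were kept without a filter (1 count) or with 10 counts in each library, factors were from RLE or upper quartiles, and DESeq2 1.42.0 was run, also with its unadjusted p.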

Additional observations from a re-analysis of the deposited data

How the results depend on the processing

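Of the 10 transcripts, 4 to 6 were called for AMPK-KO against WT and 4 to 6 for late-stage against early-stage under the settings with an adjusted p, and Axl, Gas6 and Anxa1 in both comparisons, Stab1 in the first and Itgb5 in the second kept their direction and call under each of them. With DESeq2's unadjusted p, 7 members were called for AMPK-KO against WT (2 higher, 5 lower) and 7 with stage. All genes called for AMPK-KO against WT were 5929 with that p and 2414 to 4039 with a sample left out (against 3693), and those also past a log2 fold change of 1 were 1140 (against 585). With stage they were 4625 with that p, 2467 with DESeq2, 936 without a filter and 653 (without Late2) to 2835 (without Early1) with a sample left out (against 1619), and 997 with that p past a log2 fold change of 1 (against 329). Fewer samples or more genes tested separate some of these settings from the main one, and otherwise the cause was not tested. With a sample left out, the log2 fold change changed sign for Mertk in AMPK-KO (-0.075 to 0.044, above 0 without WT1 or AMPK-KO3), and with stage for Mfge8 (-0.14 to 0.10, above 0 without Early2 or Late1) and Stab1 (-0.023 to 0.071, below 0 without Early3 or Late1), none of them called. The 4 ratio differences kept their direction, from 0.53 to 0.64 and -0.99 to -0.93 for AMPK-KO and from 1.30 to 1.36 and -1.22 to -0.91 with stage, and their p can never pass 0.05 in this design.

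Samples share replicate numbers but did not deviate together (correlations of same-numbered samples -0.0039 to 0.0423), so the numbers were not taken as pairs. With the replicate block, 3862 genes and 5 members (Itgav added, adjusted p = 0.0482) were called for AMPK-KO against WT and 1417 genes and 5 members with stage. Late-stage and early-stage samples differ in Y-linked transcripts, which no setting can separate from stage.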

Other observations

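The genes whose pair of log2 fold changes lay nearest to that of the member that moved most in each comparison were looked up among 8952 genes with a mean of at least 10 CPM in both tables, as a description over 2 comparisons only. Nearest to Gas6 were Ptpn14 (-1.16 in AMPK-KO and -0.65 in late-stage TAMs), the basement membrane gene Nid2 (-1.06 and -0.69) and Gclm (-1.20 and -0.61), a subunit gene of the enzyme that starts glutathione synthesis. Nearest to Axl were the inhibitory receptor gene Siglece (0.59 and 1.13), the immunoglobulin heavy chain gene Ighm (0.56 and 0.97) and Foxp3 (0.49 and 1.14), the transcription factor gene of regulatory T cells. Each of these 6 genes passed an adjusted p of 0.05 in both comparisons (edgeR). They were picked by these same log2 fold changes, so the calls add no support.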
